A study of Homo sapiens with 9 samples.

Results

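The IQGAP genes IQGAP1, IQGAP2 and IQGAP3 were followed through the RNA cargo of extracellular vesicles that human embryonic stem cells release. Their probe sets were taken by annotation symbol from all 9 HG-U133 Plus 2.0 arrays, which gave 3 of 19775 genes and 9 of the 54675 probe sets, 3 for IQGAP1, 2 for IQGAP2 and 4 for IQGAP3. IQGAP2 had been picked because one of its probe sets was very bright in microvesicles. Its values are therefore given as a description with no test, and tests are reported for IQGAP1 and IQGAP3 alone. The files used here give no position for the probe sets. RefSeq places IQGAP1 (gene ID 8826) on chromosome 15, IQGAP2 (gene ID 10788) on chromosome 5 and IQGAP3 (gene ID 128239) on chromosome 1.

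All vesicles came from untreated H9 cells, an established embryonic stem cell line, grown without feeder cells in mTeSR1 medium on Matrigel. Microvesicles (MVs, 3 arrays) were pelleted from the culture medium at 16500g, after cells and larger bodies had been cleared at up to 2800g. Exosomes (EXOs, 3 arrays) were then pelleted at 120000g from the supernatant left after the MVs pellet. Non-fractionated vesicles (hESEVs, 3 arrays) were spun down directly after a 300g clearing step, at 120000g per the labels, whereas the study's methods give a harder clearing step and a faster and longer spin, and which of these was used for the arrays is not settled. By either account the hESEVs were a separate preparation, and not the sum of the MVs and EXOs pellets. The study describes 3 biological samples per group, all from 1 cell line.

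IQGAP proteins are large scaffolds under the plasma membrane. They bind actin filaments through a calponin homology domain, calmodulin and myosin light chains through their IQ motifs, and active Rac1 and Cdc42 through a domain that resembles a GTPase-activating protein but does not speed GTP hydrolysis. IQGAP1 is made in most cell types and links cadherin adhesion, the RAF-MEK-ERK kinases and the cell cortex. IQGAP2 is best known from liver and platelets, and IQGAP3 from proliferating cells.

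Array medians were close within a group, but those of MVs lay under those of both other groups. The median signal of an array lay between 357.89 and 365.34 for MVs, 421.88 and 429.71 for EXOs, and 415.32 and 420.82 for hESEVs. Every array was scaled to the same mean, so a signal measures a share of the labelled RNA and not an amount, and fewer vesicles that carry a transcript cannot be told apart from less of it per vesicle. By the study's electrophoresis, MVs held mostly long RNAs and EXOs mainly short ones. The part of RNA length in the differences below was not tested. Background was set as the 90th percentile of 39 measured genes restricted to other tissues, which was a signal of 1141.16 in MVs, 1329.07 in EXOs and 1216.2 in hESEVs. It is a rough mark, because probe sets differ in affinity. A difference was called, or passed the test, at a limma adjusted p under 0.05 (Benjamini-Hochberg over all probe sets or genes) and at least 2-fold, on log2 signals with values under 32 set to 32. Of 9 measured pluripotency genes, 8 were above background in MVs, 3 in EXOs and 7 in hESEVs, and 8 were called higher in MVs, as were 11.6% of all genes. NANOG (1278.4 in EXOs, 1222.79 in hESEVs) was above the mark in hESEVs and not in EXOs because the marks differ. The summed signal of the 9 genes ran from 58392.2 to 61131.6 over the MVs arrays. It ran from 12409.6 to 15538.3 over EXOs and from 17637.0 to 20180.2 over hESEVs. IQGAP2 203474_at and IQGAP1 200791_s_at and 210840_s_at also had this order of groups. By their means, NANOG and SALL4 were lower in hESEVs than in EXOs. The part of the pluripotency genes in the IQGAP results was not tested.

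IQGAP2 had the largest difference between the fractions of the family, by 1 of its 2 probe sets. Probe set 203474_at read 61522.7, 64077.9 and 63414.9 in the MVs arrays. It read 1511.14, 1542.89 and 1350.86 in the EXOs arrays. In hESEVs it read 5322.76, 4234.39 and 3817.0. The 3 groups did not overlap, and the lowest MVs array was 39.9 times the highest EXOs array. Of all probe sets, 35.0% had no overlap between MVs and EXOs, 29.1% between hESEVs and MVs, and 16.8% between hESEVs and EXOs. The replicates lay close together in MVs, at 63005.17 ± 1325.96 (SD, n = 3), a coefficient of variation of 2.1%, against 1468.3 ± 102.93 in EXOs and 4458.05 ± 777.4 in hESEVs. This was the 1 member probe set above the background mark on all 9 arrays.

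On the log2 scale, 203474_at was 5.43 higher in MVs than in EXOs (SE 0.09, 95% interval 5.21 to 5.64), a 43.0-fold difference. It stood 18th from the highest among the differences of 54613 probe sets. In hESEVs it was 1.59 above EXOs on the log2 scale (SE 0.12), a 3.01-fold difference, and 3.83 below MVs (log2 difference -3.83, SE 0.12), a 14.3-fold difference. The comparisons share arrays, so these differences are not independent of each other. The MVs to EXOs difference was 4.21 with quantile normalization and 5.66 with each array centred on its median.

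The other IQGAP2 probe set, 241723_at, did not show this pattern. It read 138.39, 294.48 and 317.25 in MVs, 179.2, 270.76 and 186.18 in EXOs, and 176.84, 231.66 and 343.45 in hESEVs. The 3 groups overlapped, and no array was above background. Its log2 difference between MVs and EXOs was 0.17 (SE 0.57, 95% interval -1.14 to 1.49), which is 5.25 less than that of 203474_at. Averaging all probe sets of a gene gave a log2 difference of 2.80 (SE 0.20) for IQGAP2 and of 2.37 (SE 0.13) for IQGAP1. Which part of the transcript each probe set reads could not be looked up in the files used here.

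**Figure D1:**
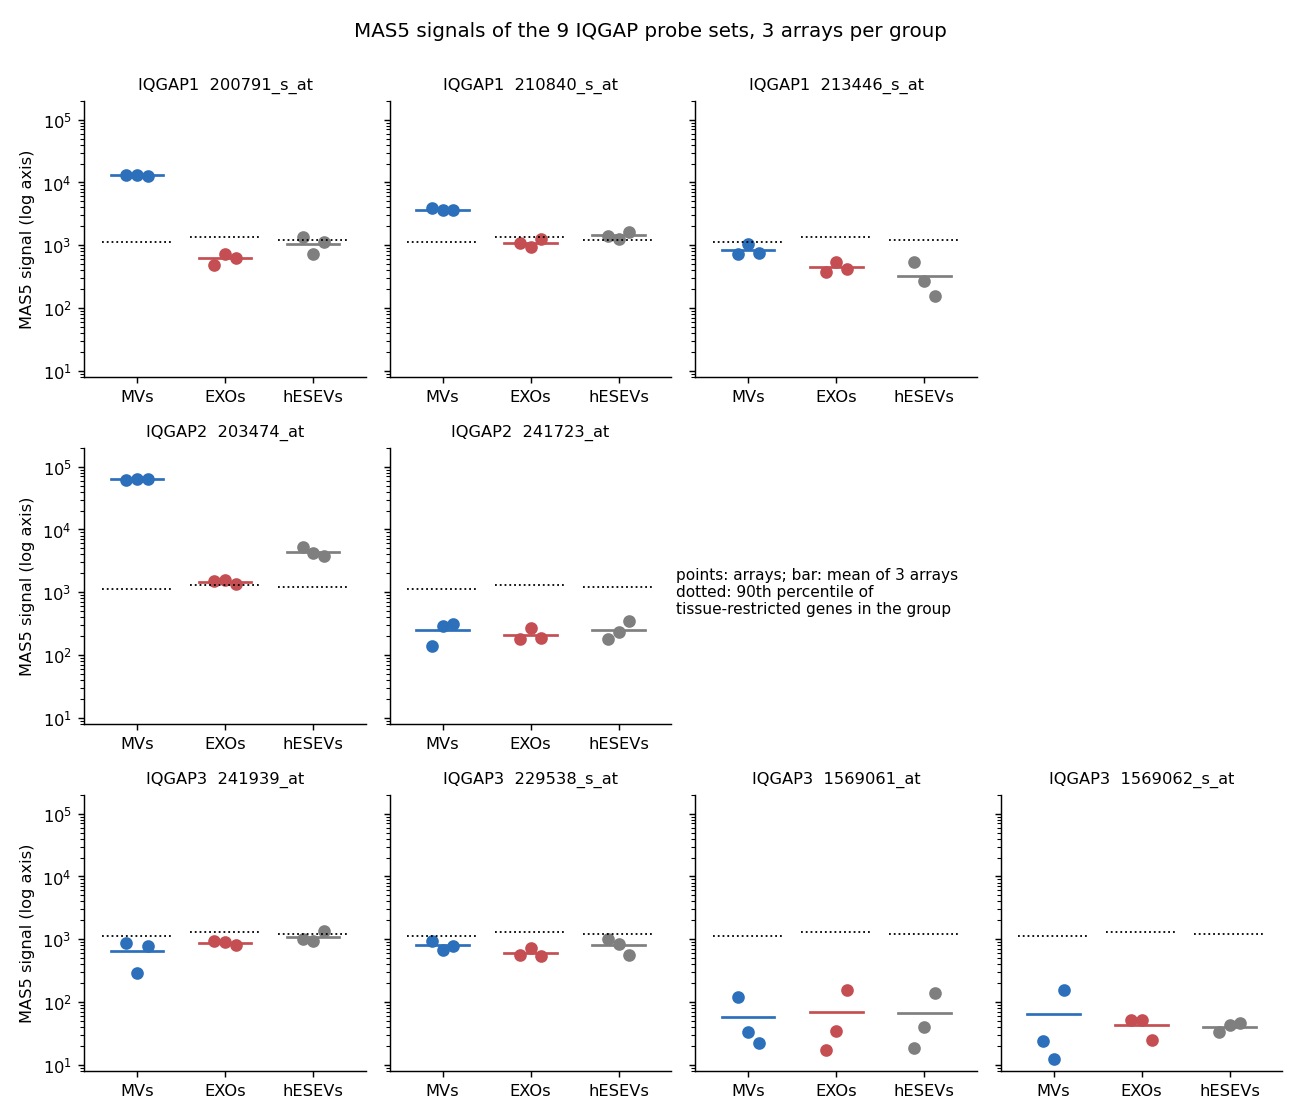
Signal of each IQGAP probe set on every array (log axis, MAS5 signal, points are single arrays, solid bars group means, dotted lines the background mark). IQGAP2 203474_at lies between 61522.7 and 64077.9 in MVs, far above its EXOs and hESEVs arrays, IQGAP1 200791_s_at is also highest in MVs, and the IQGAP3 probe sets overlap between MVs and EXOs.

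IQGAP1 rose in MVs by 2 of its 3 probe sets. Probe set 200791_s_at read 12989.4, 13097.4 and 12757.0 in MVs, where its replicates had a mean of 12947.93 ± 173.95 (SD, n = 3). It read 482.26, 727.74 and 637.8 in EXOs and 1328.58, 726.35 and 1128.97 in hESEVs. MVs lay above both other groups, and EXOs and hESEVs overlapped. The MVs level exceeded that of EXOs 21.3-fold (log2 difference 4.41, SE 0.15, 95% interval 4.06 to 4.77, limma adjusted p = 1.3e-06). All 3 EXOs arrays were under the background mark, so the size of this fold is uncertain.

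Probe set 210840_s_at read 3881.83, 3595.01 and 3593.66 in MVs, 1074.8, 926.91 and 1260.94 in EXOs, and 1405.69, 1251.83 and 1651.88 in hESEVs. MVs again lay above both other groups. The difference between MVs and EXOs was 3.42-fold (log2 1.77, SE 0.14, limma adjusted p = 9e-05), with the same limit, since no EXOs array was above background. The last IQGAP1 probe set, 213446_s_at, read 731.35, 1048.78 and 753.2 in MVs, 381.52, 535.92 and 417.62 in EXOs, and 539.21, 267.53 and 158.2 in hESEVs, all under background. Its log2 difference between MVs and EXOs was 0.92 (SE 0.25), which missed the threshold (limma adjusted p = 0.056). It passed with quantile normalization (1.04, limma adjusted p = 0.034) and with each array centred on its median (1.15, limma adjusted p = 0.025).

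The IQGAP1 probe sets gave folds of different size, all against EXOs signals under background. The log2 difference between MVs and EXOs was 2.64 larger for 200791_s_at than for 210840_s_at and 3.50 larger than for 213446_s_at. In a two-sided exact permutation test each of these gave p = 0.1, and no smaller p can be had from 20 arrangements, so the test could not have passed. All 3 probe sets carry the suffix of sets that can match several transcripts, so IQGAP1 has no value without such sets.

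IQGAP3 had no probe set that passed the test between MVs and EXOs. Probe set 241939_at read 869.17, 294.01 and 794.1 in MVs, 947.66, 890.31 and 813.4 in EXOs, and 1000.97, 947.11 and 1348.43 in hESEVs. The MVs arrays were spread, with replicate 2 far below the others, and overlapped with EXOs. The log2 difference was -0.59 (SE 0.40, 95% interval -1.52 to 0.35, limma adjusted p = 0.38). For 229538_s_at, the MVs arrays read 929.01, 686.47 and 791.16, those of EXOs 556.59, 730.16 and 533.64, and those of hESEVs 1015.76, 850.78 and 559.33. All 3 groups overlapped, and the log2 difference between MVs and EXOs was 0.41 (SE 0.22, 95% interval -0.11 to 0.92, limma adjusted p = 0.28).

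The remaining IQGAP3 probe sets were dim everywhere. Probe set 1569061_at had a mean of 58.3 ± 53.17 in MVs, 68.98 ± 75.04 in EXOs and 65.91 ± 64.09 in hESEVs (SD, n = 3). Probe set 1569062_s_at had means of 63.96 ± 79.48, 42.52 ± 15.69 and 40.41 ± 6.75. The SD exceeded the mean in EXOs for the first and in MVs for the second, and their 95% intervals for MVs minus EXOs ran from -1.90 to 1.60 and from -1.17 to 1.77. Each interval therefore allows a difference of over 2-fold either way. Among the 4 IQGAP3 probe sets, 1 array of 241939_at, in hESEVs, was above background.

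Over the 7 probe sets of IQGAP1 and IQGAP3, 2 were higher in MVs than in EXOs and 0 were lower, where 7.23% of all probe sets passed toward MVs and 1.97% toward EXOs (3949 and 1078, or 4619 and 325 with each array centred on its median). At an unadjusted limma p under 0.05 there were 3, and the methods' t-test on the same values also called 2 after adjustment. All 3 IQGAP1 probe sets and 0 of the 4 IQGAP3 probe sets had MVs arrays that did not overlap those of EXOs, as did 35.0% of all probe sets. Taking the brightest probe set of each gene, the log2 difference between MVs and EXOs was 1.01 larger for IQGAP2 than for IQGAP1 and 6.01 larger than for IQGAP3, both without a test. The gap to IQGAP1 was smaller with quantile normalization (4.21 against 3.71) and with all probe sets of a gene averaged, and IQGAP1 was under background in EXOs. The means of IQGAP3 241939_at were under background in MVs, EXOs and hESEVs.

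**Figure D2:**
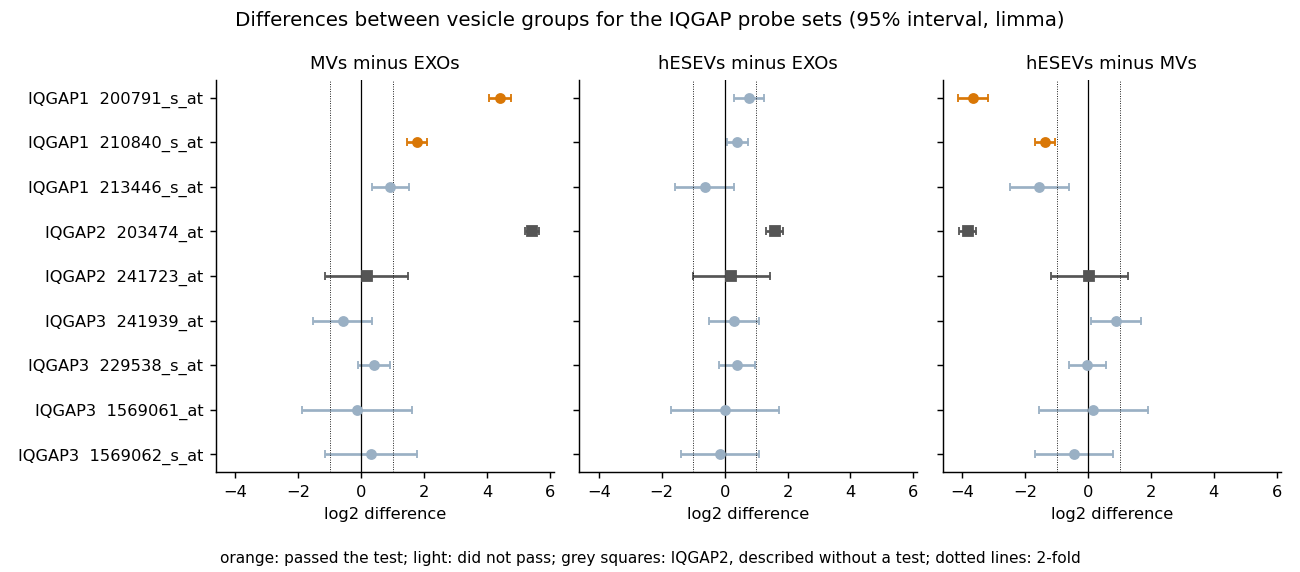
Log2 differences between the vesicle groups for the 9 IQGAP probe sets, with 95% intervals from limma (dotted lines mark 2-fold). IQGAP2 203474_at at 5.43 and IQGAP1 200791_s_at at 4.41 stand far to the right for MVs minus EXOs, and no IQGAP1 or IQGAP3 probe set passed the test for hESEVs minus EXOs.

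In hESEVs, IQGAP1 was lower than in MVs by the same probe sets. The difference was 12.6-fold for 200791_s_at (log2 -3.65, SE 0.22, limma adjusted p = 3.3e-06) and 2.58-fold for 210840_s_at (log2 -1.37, SE 0.15, limma adjusted p = 0.00017). The hESEVs mean of the former was under background, so its fold is uncertain. The latter was under 2-fold with quantile normalization (-0.75). For 213446_s_at the log2 difference was -1.55 (SE 0.42, limma adjusted p = 0.053), and without hESEVs replicate 1 it was -2.02 and passed (limma adjusted p = 0.012). These were 2 of the 7 probe sets, where 4.25% of all probe sets passed toward MVs and 1.05% toward hESEVs. IQGAP3 241939_at went the other way, with all hESEVs arrays above all MVs arrays, as in 29.1% of all probe sets in either direction. Its log2 difference of 0.89 (SE 0.36) did not pass (limma adjusted p = 0.18).

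Between hESEVs and EXOs, limma called 0 of the 7 IQGAP1 and IQGAP3 probe sets, where 2.05% of all probe sets were called. At an unadjusted p under 0.05 there were 2, both of IQGAP1, and the methods' t-test gave 0 adjusted and 0 unadjusted. The log2 difference of 200791_s_at was 0.76 (SE 0.22, 95% interval 0.28 to 1.24, limma adjusted p = 0.13), and without hESEVs replicate 2 it was 1.01 and passed (limma adjusted p = 0.015). None of the 7 had hESEVs arrays that lay apart from the EXOs arrays, against 16.8% of all probe sets.

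To describe where hESEVs lay for IQGAP1 and IQGAP2, the hESEVs mean was placed on a linear scale between the EXOs mean at 0% and the MVs mean at 100%. Over the 3949 probe sets called higher in MVs, the median place was 21.86%, and the quartiles were 13.03% and 33.16%. IQGAP2 203474_at stood at 4.86%, with 6.26%, 4.5% and 3.82% for the single hESEVs arrays. Of the 3949 probe sets, 10.66% had a lower place. The MVs signal for which IQGAP2 was picked sets the upper end of its scale, so this is a description, and the same hESEVs arrays were all above the EXOs arrays, 3.01-fold in the fit.

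IQGAP1 200791_s_at stood at 3.61%, with 5.78%, 0.9% and 4.16% for the single arrays, and 8.96% of the 3949 lay lower, although its EXOs and hESEVs means were both under background. IQGAP1 210840_s_at stood at 13.41%, with 26.03% lower. After quantile normalization all places moved up, the median to 32.02%, IQGAP2 to 14.09% and IQGAP1 to 7.1% and 30.88%. In that scaling 20.51% of the 3949 lay below IQGAP2. Because hESEVs were prepared by another spin, a place is not the proportion in which the fractions were mixed.

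**Figure D3:**
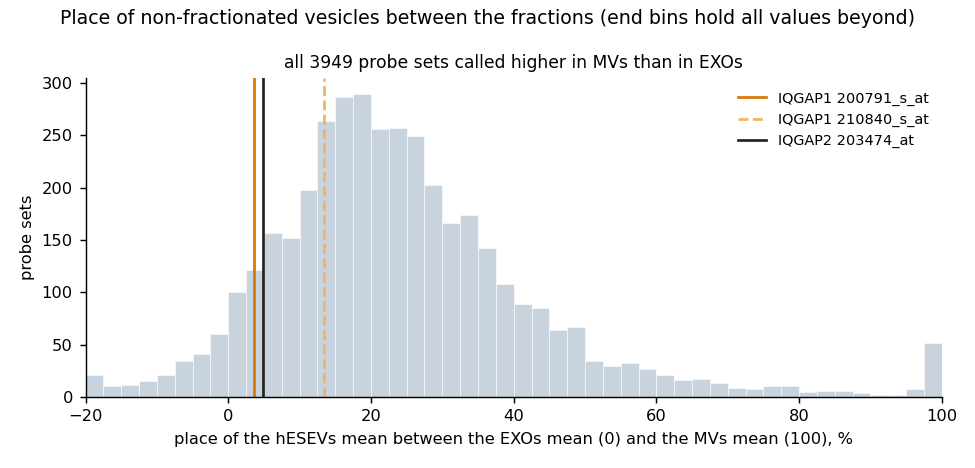
Histogram of where the hESEVs mean lies between the EXOs mean (0%) and the MVs mean (100%) for all 3949 probe sets called higher in MVs (values beyond the axis are counted in the end bins). The lines for IQGAP2 at 4.86% and IQGAP1 200791_s_at at 3.61% fall in the lower flank, below the median of 21.86%.

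Some genes of proteins listed as IQGAP partners were also higher in MVs, and direct binding was not checked for each. Of 41 such genes, 32 had a probe set of their own, and of these 11 passed toward MVs, 3 passed toward EXOs and 18 did not pass. Over all 19775 genes, 11.6% passed toward MVs and 2.77% toward EXOs. The roles below held 2 to 6 measured genes each, so their counts beside that 11.6% say little. The median log2 difference was 0.26 for the list and -0.23 for all genes. For 5 of the 11 the EXOs mean was also above background, and for the others the size of the fold is uncertain. Without probe sets that can match several transcripts, 4 of 24 partner genes were higher in MVs (16.7%, against 7.64% of all genes left). With dim genes left out, 10 of 27 were (37.0%, against 19.2% of all genes left). With each array centred on its median, which moved the median of all genes from -0.23 to 0.0, 11 passed toward MVs and 0 toward EXOs, so the 3 calls toward EXOs below were lost. They were also lost with all probe sets of a gene averaged. With an array left out, 1 or 2 partner genes were called toward EXOs. In the fit of all 9 arrays 1 was called, and 2 were called without the trend and with the replicate block. With quantile normalization and with spike-in scaling 3 were called, and 4 with a floor of 100. The calls toward EXOs therefore depend on the processing.

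Among the small GTPases of the list, 2 of 5 rose in MVs. RAC1, a regulator of actin at the cell edge, read 5969.1 ± 250.77 in MVs and 1524.67 ± 262.03 in EXOs, 3.95-fold higher (SD, n = 3, limma adjusted p = 1.4e-05). RAP1B, a Ras-like GTPase of adhesion, was 4.09-fold higher (limma adjusted p = 2.9e-05), with an EXOs mean under background. Of the proteins that bind the IQ motifs, MYL6, the essential light chain of non-muscle myosin, read 26287.5 ± 529.0 against 1552.39 ± 298.78, 17.1-fold higher (limma adjusted p = 3e-07). S100B, a calcium sensor, was dim in both and had a log2 difference of -1.38 (limma adjusted p = 0.12).

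Of the kinases that IQGAP1 scaffolds, 1 of 3 measured rose. MAP2K2, the kinase upstream of ERK, read 1741.68 ± 237.72 in MVs and 99.89 ± 84.01 in EXOs, the latter under background (limma adjusted p = 0.00093). MAPK3, which encodes an ERK kinase, had a log2 difference of -0.28 (limma adjusted p = 0.25). In the adhesion and receptor group 3 of 6 rose, and 1 of 6 by the methods' t-test. Among the 3 were CTNNB1 at 4.71-fold (limma adjusted p = 2.9e-05) and CTNNA1 at 6.02-fold (limma adjusted p = 0.0045), the genes of beta-catenin and alpha-catenin. The EXOs means of both were under background. The receptor gene EGFR was 2.27-fold higher in EXOs (limma adjusted p = 0.018), with both means under background.

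In the actin group 3 of 5 rose. EZR encodes ezrin, which ties actin to the membrane. It read 73190.73 ± 1689.77 in MVs, 4115.55 ± 320.08 in EXOs and 5681.46 ± 502.16 in hESEVs, a 17.8-fold difference between the fractions (limma adjusted p = 1.3e-07). ACTB, beta-actin, was 7.75-fold higher in MVs (limma adjusted p = 4.6e-07). DIAPH1, a formin that lengthens actin filaments, was 2.19-fold higher in EXOs, at 2685.29 ± 177.78 against 1227.81 ± 128.08 in MVs (limma adjusted p = 0.00036), above background in both.

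None of the 3 genes of microtubule ends and neither exocyst gene was called higher in MVs, where 11.6% of all genes were. There were also 0 of each at an unadjusted limma p under 0.05 and 0 by the methods' t-test. Groups this small would hold few or no calls at that share, so these counts set no contrast with the other roles. APC, whose protein binds microtubule tips, was 2.09-fold higher in EXOs (limma adjusted p = 0.023), with both means under background, and CLASP2 had a log2 difference of -0.74, under 2-fold (limma adjusted p = 0.038). The exocyst genes EXOC1 and EXOC4, which act in vesicle tethering, had log2 differences of 0.25 and -0.0041 (limma adjusted p = 0.54 and 0.99). Of 6 phosphoinositide kinase and AKT genes, PI4KA rose in MVs, 5.61-fold from means under background in both groups (limma adjusted p = 0.03), and PIP5K1A had a log2 difference of -0.64, under 2-fold (limma adjusted p = 0.015). On the scale from EXOs to MVs, the 11 partners higher in MVs placed hESEVs from 2.27% to 47.4%, with a median of 17.12%, and 1 of them, EZR, lay below IQGAP2.

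**Figure D4:**
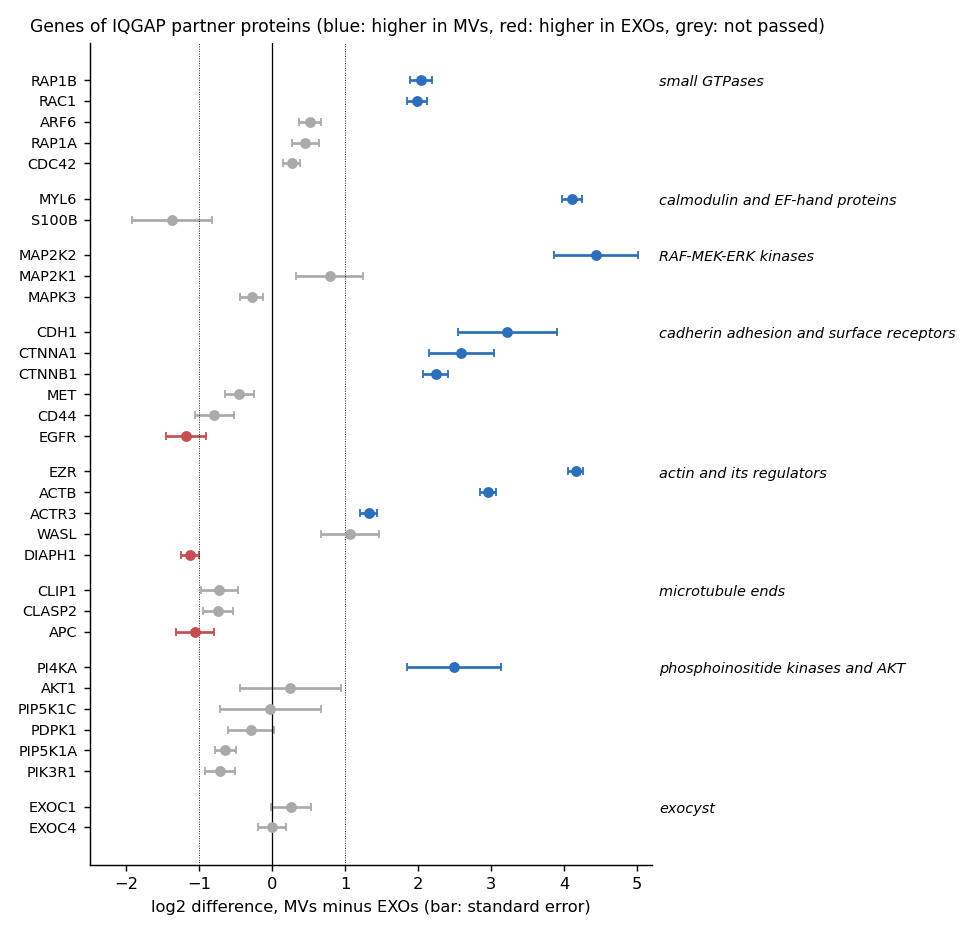
Log2 difference between MVs and EXOs for the 32 measured genes of IQGAP partner proteins, grouped by role (bars are standard errors, dotted lines mark 2-fold). The 11 genes higher in MVs include MAP2K2, EZR and MYL6 furthest to the right, MAP2K2 with an EXOs mean under background. The 3 higher in EXOs are EGFR, DIAPH1 and APC.

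Genes that followed IQGAP2 over the 9 arrays were sought among 3298 genes with an MVs mean above background, by the root mean square (RMS) difference of log2 signals after centring each gene on its own mean. The nearest were DBN1 (RMS 0.355), ANLN (0.356), SPTBN1 (0.359), BLVRB (0.393), RBPMS2 (0.465) and MACF1 (0.470). DBN1 encodes drebrin, an actin-binding protein, ANLN encodes anillin of the contractile ring, SPTBN1 a spectrin of the membrane skeleton, and MACF1 a linker of actin and microtubules. BLVRB encodes biliverdin reductase B and RBPMS2 an RNA-binding protein. DBN1 read 34030.3 ± 627.61 in MVs, 1375.31 ± 174.89 in EXOs and 3181.6 ± 726.2 in hESEVs (SD, n = 3). Ranked by Pearson's r instead, ANLN alone stayed among the nearest 6.

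IQGAP1 itself lay at an RMS of 0.504 from IQGAP2, and IQGAP3 at 2.627. The 3 genes nearest to IQGAP1 were DBN1 (0.215), EZR (0.278) and CENPE (0.294), a mitotic kinesin. Nearest to IQGAP3 241939_at were LINC01949 (0.246), APBB2 (0.279) and TRAPPC9 (0.292), which were lower in MVs than in the other groups by their means. Probe set 241939_at itself was under background on all but 1 array. Without MVs replicate 2 its log2 difference between MVs and EXOs was -0.086, so this likeness rests on dim and spread values. The points share libraries and scaling, and genes entered through their MVs level alone, so likeness is a description. Of the 6 nearest to IQGAP2, BLVRB, RBPMS2 and MACF1 had EXOs means under background (43.81, 113.13 and 1178.29).

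**Figure D5:**
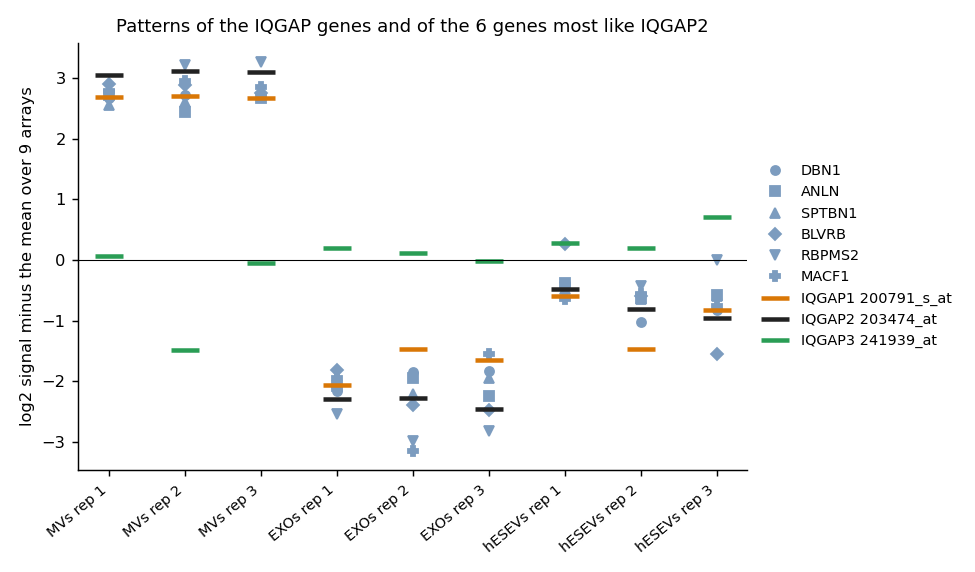
Log2 signal of the brightest probe set of each IQGAP gene and of the 6 genes most like IQGAP2, minus each gene's mean over the 9 arrays. IQGAP1, IQGAP2 and the 6 genes are high on the 3 MVs arrays and low on the EXOs arrays, while IQGAP3 does not follow this order and is lowest on MVs replicate 2.

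Since IQGAP2 is known from liver and platelets, markers of both were read beside it. Of 15 hepatocyte genes and 6 platelet genes, 0 were higher in MVs by limma, 0 at an unadjusted p under 0.05 and 0 by the methods' t-test, where 11.6% of all genes were called. Lists this short would hold few calls at that share, so the counts say little about liver or platelet RNA. Higher in EXOs were 1 gene of each list, TAT, a liver enzyme gene (2.03-fold, limma adjusted p = 0.0056), and PPBP, a platelet chemokine gene (2.35-fold, limma adjusted p = 0.015), where 2.77% of all genes were. With each array centred on its median, both were under 2-fold. The MVs means of both were under the background mark, which these lists help to set. The summed hepatocyte signal ran from 5969.3 to 8355.6 over the MVs arrays, from 10368.7 to 11726.9 over EXOs and from 9254.1 to 10701.8 over hESEVs. The platelet sum was 2574.0 to 3286.4, 3868.4 to 5137.5 and 3191.1 to 3979.4. ALB, the albumin gene of hepatocytes, read 362.99 ± 80.75 in MVs, and 494.16 ± 112.98 in EXOs, and PPBP read 332.67 ± 15.56 and 782.86 ± 77.78 (SD, n = 3).

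Genes that RefSeq places on or beside the IQGAP genes were mostly under background, and none that was measured passed the test. F2RL2, a thrombin receptor gene that overlaps IQGAP2, read 212.95 ± 64.86 in MVs and 240.86 ± 58.32 in EXOs (SD, n = 3, limma adjusted p = 0.82). The overlapping LOC101929109 read 328.89 ± 94.9 and 435.1 ± 88.94 (limma adjusted p = 0.50). CRTC3, beside IQGAP1, had a log2 difference of -0.52 between MVs and EXOs (limma adjusted p = 0.12), and MEF2D, beside IQGAP3, of 0.25 (limma adjusted p = 0.85).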

How the data were processed

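RNA of MVs, EXOs and hESEVs (3 arrays each) was hybridized to HG-U133 Plus 2.0 arrays. The deposited values are MAS5 signal intensities on a linear scale, which the authors scaled on each array to a trimmed mean of 500. No column of sample values was left unused. Probe sets were named from the platform annotation: 41091 had 1 gene, 1801 several and 11721 none, and 41037 were matched by gene ID in RefSeq (GRCh38.p14), which was used for names and neighbouring genes and not for positions.

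After 62 control probe sets were left out, signals under 32 were set to 32 and log2 was taken. Groups were compared by two-sided limma 3.58.1 fits (lmFit and eBayes with trend, R 4.3.3), MVs with EXOs on 6 arrays and hESEVs with either on all 9. P-values were adjusted by Benjamini-Hochberg over 54613 probe sets or 19775 genes, each gene by its brightest probe set. A difference was called at an adjusted p under 0.05 and at least 2-fold. The fitting code was checked on simulated data with independent noise, which does not test the calls reported here. Precision is limited by the 3 arrays per group.

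The IQGAP genes, the partner and marker lists, and the tests were chosen with earlier results of these data known. Named were all IQGAP probe sets, of each partner role the 2 genes with the smallest p and any gene called higher in EXOs, the genes most like each IQGAP gene, and neighbouring genes. ALB, PPBP and the low-placed genes of the closing section were chosen after values were seen. Alternatives were 3 normalizations, signal floors of 1 and 100, leaving out dim probe sets, limma without trend, the methods' t-test, a replicate block, and leaving out each array.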

Additional observations from a re-analysis of the deposited data

How the results depend on the processing

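The IQGAP2 203474_at log2 difference between MVs and EXOs was 4.21 with quantile normalization and 5.66 with median centring, against 5.43, and 5.37 to 5.46 with each array left out. IQGAP1 200791_s_at kept its direction and call in all 17 alternatives (3.71 to 4.65, and 4.25 to 4.55 with an array left out), as did 210840_s_at (1.25 to 2.01). The hESEVs to MVs difference of IQGAP2 was -2.42 with quantile normalization. The call of 213446_s_at between hESEVs and MVs was made with median centring (-1.77), spike-in scaling (-1.62), a floor of 1, the filter on low signals and the unadjusted methods' t-test (each -1.55). The 1078 probe sets higher in EXOs became 325 with median centring, 685 without the trend, 445 with the methods' t-test, 2650 with it unadjusted, and 571 to 786 with an array left out, while those higher in MVs were 2988 to 3749 with an array left out. Partner genes higher in MVs were 4 without shared probe sets and 9 to 11 with an array left out.

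Differences of uncalled IQGAP3 probe sets changed sign. Probe set 1569061_at gave 0.018 for MVs minus EXOs with median centring (-0.77 to 0.59 with an array left out), -0.49 to 0.79 for hESEVs minus MVs with an array left out, and for hESEVs minus EXOs -0.019 with quantile normalization, -0.053 with a floor of 100 and -0.63 to 0.75 with an array left out. Probe set 1569062_s_at gave -0.16 for MVs minus EXOs with a floor of 1 (-0.46 to 0.68 with an array left out), 0.16 for hESEVs minus MVs (-0.82 to 0.32), and 0.0 for hESEVs minus EXOs with a floor of 100 (-0.37 to 0.005). Probe set 229538_s_at gave -0.21 to 0.22 for hESEVs minus MVs with an array left out. The cause of these changes was not tested.

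Same-numbered arrays of different groups were no more alike than others. Their correlations of deviations from the group means were -0.011 to 0.013, against -0.011 to 0.015 for arrays with different numbers. With so few arrays per group, these values cannot settle whether same-numbered MVs and EXOs came from the same culture. With the replicate block, probe sets higher in MVs numbered 3524, those higher in EXOs 575, and partner genes higher in MVs 11.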

Other observations

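Other bright probe sets with a low place of hESEVs were looked at after the values were seen. Of the 425 probe sets called higher in MVs with a mean MVs signal above 10000, the lowest places belonged to AKAP12 (-1.33%), RDX (0.1%), EZR (1.53% and 2.27% by its probe sets) and MSN (2.47%), followed by SET (3.57%), IQGAP1 (3.61%), PSAT1 (4.46%) and IQGAP2 (4.86%). RDX read 75155.5 ± 2596.47 in MVs, 4078.99 ± 314.25 in EXOs and 4149.59 ± 331.81 in hESEVs (SD, n = 3). MSN read 16716.6 ± 503.37, 1347.89 ± 358.78 and 1726.75 ± 210.88. With quantile normalization the places were -5.82% for AKAP12, -7.9% for RDX, 3.06% and -1.2% for EZR, 5.23% for MSN and 115.51% for SET.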
